A study of Mus musculus with 24 samples.

Results

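The first hour of the lung's response to thoracic irradiation was measured in 6 of the 24 arrays of the series, 3 of lung taken 1 h after the exposure and 3 of lung that was not irradiated. All measured genes were described, and the members were the 6 arrays, chosen by their labels for tissue and time. The mice were females of 3 inbred strains, 12 to 13 weeks old (A/J, C57BL/6J, C3H/HeMs; values of the strains follow in this order), and the irradiated groups had received 10 Gy to the thorax. The controls shared strain, sex and age and carried no irradiation. Each array held lung RNA pooled from 3 mice of a strain, set against one common reference, a mixture of commercial RNA from 10 organs, so that every group had 1 array per strain and 3 arrays in all. Lung at 12 h and 72 h, and skin of the same strains irradiated with 30 Gy on the hind leg, were used for comparison.

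Values are log2 ratios of lung over the reference, centred on the median of each array, and a change is the value at 1 h minus that of the control of the same strain. A change of 1 is a doubling. Mean changes (n = 3 strains) are given with the standard error of the limma fit, and group means with the SD (n = 3 arrays). For lung, that standard error draws on the arrays of all lung groups. The main fit has a term for strain, so differences in level between strains are removed. Because each array is a pool and each strain has 1 array per time, p-values rest on how unevenly the strains changed between groups. They do not measure the spread between mice of a strain. The array ratios were described for 8750 features, 5908 of them under a gene symbol. In the 6 arrays between 1 and 23 ratios were exactly 0, between 8 and 26 probes sat at the deposited limit of 2 on the log10 scale, and the arrays correlated with each other at r between 0.90 and 0.96 over all features, which are not independent. The label was compared with marker genes. Lung markers were among the grounds for the sign given to the lung values, so their side of the reference is not an independent check. In the controls, 15 of 16 measured epithelial genes of the lung exceeded the reference, among them Sftpd (3.31), Ager (3.09) and Scgb1a1 (2.77), as did 18 of 19 endothelium genes, whereas 0 of 21 heart muscle, 0 of 16 skeletal muscle and 0 of 11 liver genes lay above it.

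Ionising radiation breaks DNA, and the kinases that sense the breaks stabilise the transcription factor p53. p53 then switches on genes that halt the cell cycle, such as Cdkn1a, genes that restrain p53 itself, such as Mdm2, and genes that promote cell death. In the lung, a dose to the thorax is known for late inflammation and scarring, and the response of the first hour precedes both.

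Cdkn1a, which encodes the cyclin-dependent kinase inhibitor p21, was the single feature of 8750 past the adjusted p threshold of 0.05 at 1 h, and it was higher. Its level in the controls was 1.10, 1.09 and 0.41, and at 1 h it was 2.89, 3.51 and 2.90. All irradiated pools thus lay above all control pools, with group means of 3.10 ± 0.35 and 0.87 ± 0.40 (SD, n = 3). Cdkn1a rose by 2.23 ± 0.20 on the log2 scale, a 4.71-fold rise, with changes of 1.79, 2.42 and 2.49 (limma with Benjamini-Hochberg adjustment, adjusted p = 0.0133). One feature higher is 0.0114% of those tested, and 0 were lower (0%). Without adjustment, 111 features were higher at p under 0.05 (1.27%) and 85 lower (0.971%).

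The spread in that fit came from all 12 lung arrays. The rise of Cdkn1a kept its direction in every fit tried, with estimates between 2.05 and 2.46, but its call did not hold in all of them. With only the 6 arrays compared the limma adjusted p was 0.70. Leaving out single arrays, it was 0.0928, 0.0521 and 0.131 without each control array in turn. It was 0.0814 and 0.170 without the 1 h arrays of C57BL/6J and C3H/HeMs, 0.0523 without the C3H/HeMs array at 12 h and 0.0528 without the A/J array at 72 h. Without a whole strain it lay between 0.279 and 1.00.

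Among the other genes, 2 had an adjusted p of 0.184 by limma, and every other feature had one that rounded to 1.00. Trp53inp1, a p53 target that feeds back on p53's activity, lay at 0.37, 0.29 and -0.32 in the controls and at 1.27, 1.69 and 1.32 at 1 h. The groups did not overlap, and the mean difference was 1.31 ± 0.19. Tmem252, which encodes a transmembrane protein, lay at -0.01, -1.07 and 1.42 in the controls and at 1.11, 0.70 and 2.54 at 1 h. Here the strains differed more than the times, so the groups overlapped, yet each strain was higher than its own control, by 1.11, 1.76 and 1.12.

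A size criterion gave a similarly short list. Counting features with a change of 2-fold or more and one sign in the 3 strains left 2 higher (0.0229%), Cdkn1a and Tmem252, and 1 lower (0.0114%), a probe without a gene symbol whose change was -1.35. At 1.5-fold the counts were 14 higher (0.16%) and 6 lower (0.0686%). The higher ones with a symbol were, beside Cdkn1a, Tmem252 and Trp53inp1, the genes Arntl, Nr4a2, Ptprg and Rasgef1b. The lower ones were Apoc4, Hlf, Hs3st1 and Noxred1, of which Apoc4 (-1.05) and Noxred1 (-1.16) are named after their values were seen. The other 9 carried no symbol.

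**Figure D1:**
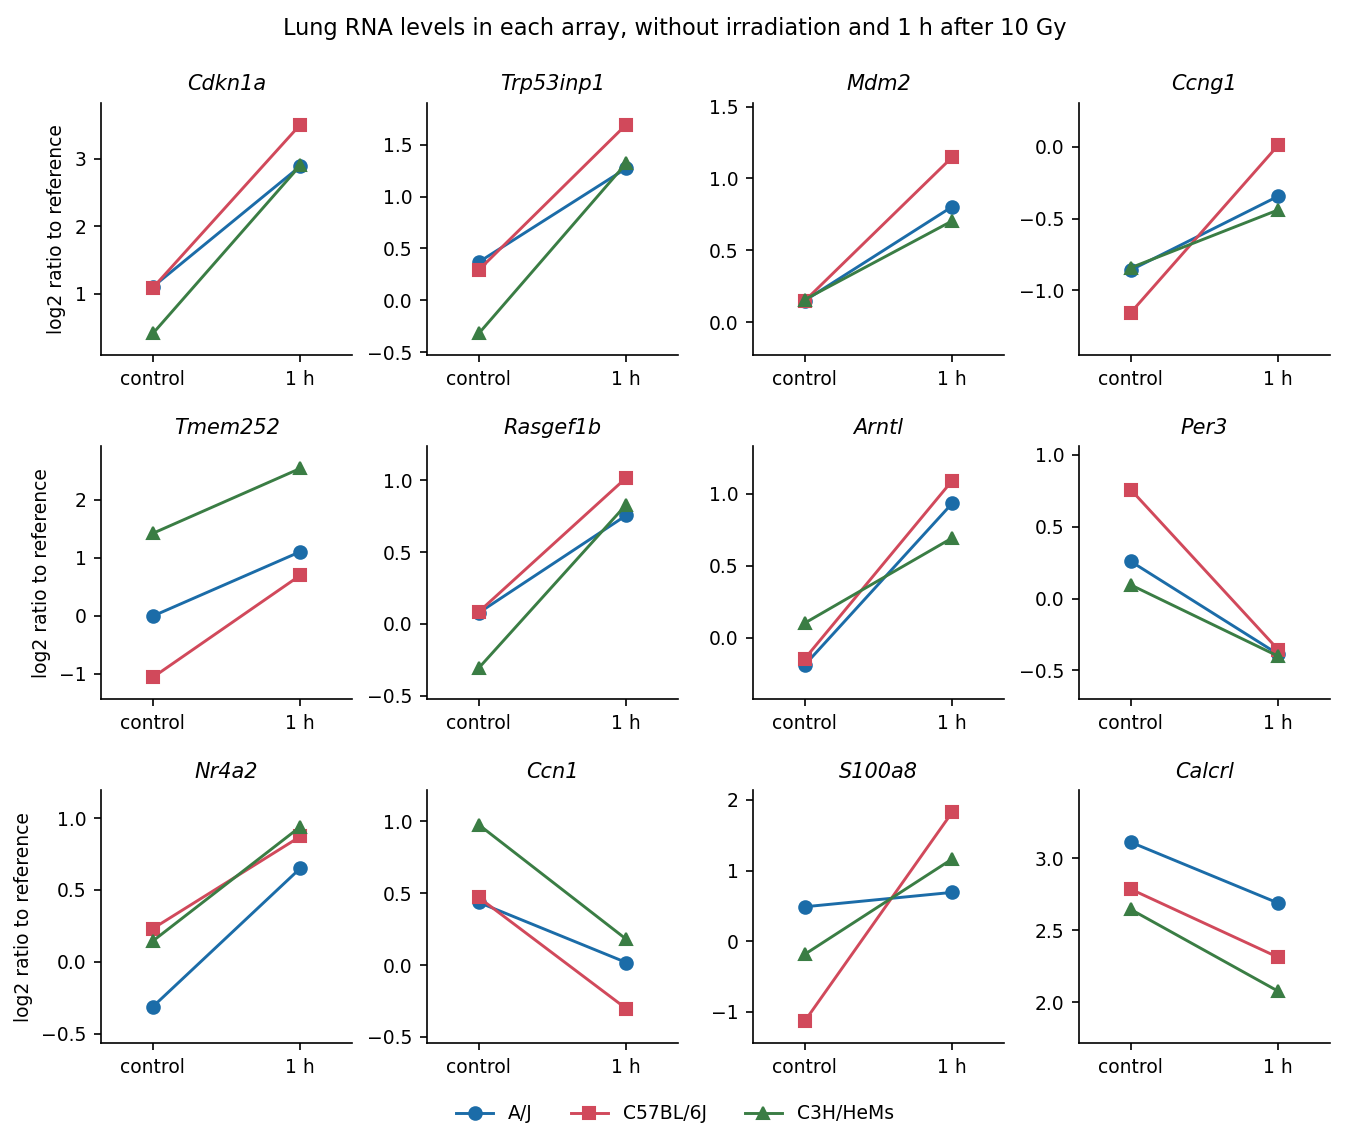
Log2 ratio to the reference (vertical axis) of 12 genes in each of the 6 lung arrays, control on the left and 1 h after 10 Gy on the right of each panel; each line joins the 2 pools of a strain. Cdkn1a climbs in all strains from at most 1.10 to at least 2.89, Tmem252 climbs by at least 1.11 from levels that differ between the strains, and Per3, Ccn1 and Calcrl run downward.

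The p53 targets of cell cycle arrest and feedback were measured by 19 genes. Of these, 5 had an unadjusted limma p under 0.05, all higher (1.27% of all features), and 0 lower (0.971%). In all 3 strains 7 were higher, against 14.6% of all features, and 0 lower, against 14.9%. Control and 1 h arrays did not overlap for 6 of the 19, all higher, where 3.53% of all features did so in that direction and 3.05% in the other. The median change of the list was 0.13, and that of all features -0.01.

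Mdm2, the ubiquitin ligase that degrades p53, stood between 0.15 and 0.16 in the 3 controls and at 0.80, 1.15 and 0.70 at 1 h. Ccng1, which encodes cyclin G1, stood at -0.86, -1.16 and -0.84 in the controls and at -0.34, 0.01 and -0.44 at 1 h. In both genes the 1 h pools lay above every control pool, with C57BL/6J the highest, and the mean differences were 0.73 ± 0.19 and 0.69 ± 0.20. Tob1, an antiproliferative gene, was the fifth, with changes of 0.60, 0.36 and 0.44. Sesn1, a stress-induced regulator of growth signalling, showed 0.02, 0.19 and 0.65.

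Several remaining members had values near 0. Gadd45a, a sensor of DNA damage and classical p53 target, differed by 0.13 ± 0.18, the phosphatase gene Ppm1d by 0.00 ± 0.13 and the nucleotide excision repair gene Xpc by -0.02 ± 0.14. Ephx1, a detoxifying epoxide hydrolase, stood at -0.12 ± 0.14.

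The 8 measured p53 targets of cell death had a median change of -0.02. At an unadjusted limma p under 0.05 there were 0, where 1.27% of all features were higher and 0.971% lower. Pmaip1, which encodes the death protein Noxa, had changes of 0.13, 0.75 and 0.44, and its SE of 0.33 was wide. Tnfrsf10b, a death receptor gene, had changes of 0.29, 0.13 and 0.32, and Bid, a death agonist gene of the Bcl2 family, -0.24, 0.34 and 0.55. The 9 measured genes around p53 itself, among them Mdm4, Chek2 and Prkdc, had a median of -0.05, and the 19 DNA repair genes had a median of -0.02. No member of either list had an unadjusted limma p under 0.05 (all features: 1.27% higher, 0.971% lower). The repair genes ran from Brca1 (-0.28 ± 0.39) to Ercc4 (0.24 ± 0.14).

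The stretches of DNA before 3 of the 5 leading p53 targets are shown because they carry letters that p53 is known to bind. They are the 250 bases before the start of transcription, from RefSeq on GRCm38.p6, read 5′ to 3′ on the gene's strand, with matches to the p53 half-site consensus in capitals. The half-site reads the same on both strands. Cdkn1a lies at chr17:29090729-29090978, plus strand, Mdm2 at chr10:117710759-117711008, minus strand, and Ccng1 at chr11:40755287-40755536, minus strand.

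Cdkn1a: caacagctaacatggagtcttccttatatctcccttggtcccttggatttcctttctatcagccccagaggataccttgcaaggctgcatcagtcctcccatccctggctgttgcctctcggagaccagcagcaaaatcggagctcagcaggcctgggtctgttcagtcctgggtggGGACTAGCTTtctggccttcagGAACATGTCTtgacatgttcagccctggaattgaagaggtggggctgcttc

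Mdm2: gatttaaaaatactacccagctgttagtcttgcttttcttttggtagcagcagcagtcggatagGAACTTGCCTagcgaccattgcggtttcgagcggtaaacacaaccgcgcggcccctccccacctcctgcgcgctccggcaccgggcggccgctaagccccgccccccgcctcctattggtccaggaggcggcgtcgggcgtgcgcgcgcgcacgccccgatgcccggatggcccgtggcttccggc

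Ccng1: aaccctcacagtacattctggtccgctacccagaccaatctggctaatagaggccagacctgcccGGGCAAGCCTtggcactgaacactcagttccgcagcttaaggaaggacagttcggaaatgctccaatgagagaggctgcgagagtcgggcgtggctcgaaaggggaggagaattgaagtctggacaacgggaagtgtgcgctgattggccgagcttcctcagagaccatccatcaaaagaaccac

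Cdkn1a had 2 matches in its window, the first beginning 73 bases before the start, and Mdm2 and Ccng1 had 1 each. The window shown for Cdkn1a belongs to one of its RefSeq starts, Tob1 held no match, and the window of Trp53inp1 was not analysed here. Of all 32851 windows of this length 7.13% held a match. Of the 17 list members with a window 8 did, namely Ccng1, Cdkn1a, Ei24, Gadd45a, Mdm2, Polk, Ppm1d and Sesn1. A gene was counted if any of its windows held a match, whereas the 7.13% is a share of single windows, so the 2 are not like measures. Of these, Ei24, Gadd45a, Polk, Ppm1d and Sesn1 had an unadjusted limma p above 0.05 at 1 h. Among the 5 death targets with a window 0 held one. A match is a run of letters and was not tested for binding.

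**Figure D2:**
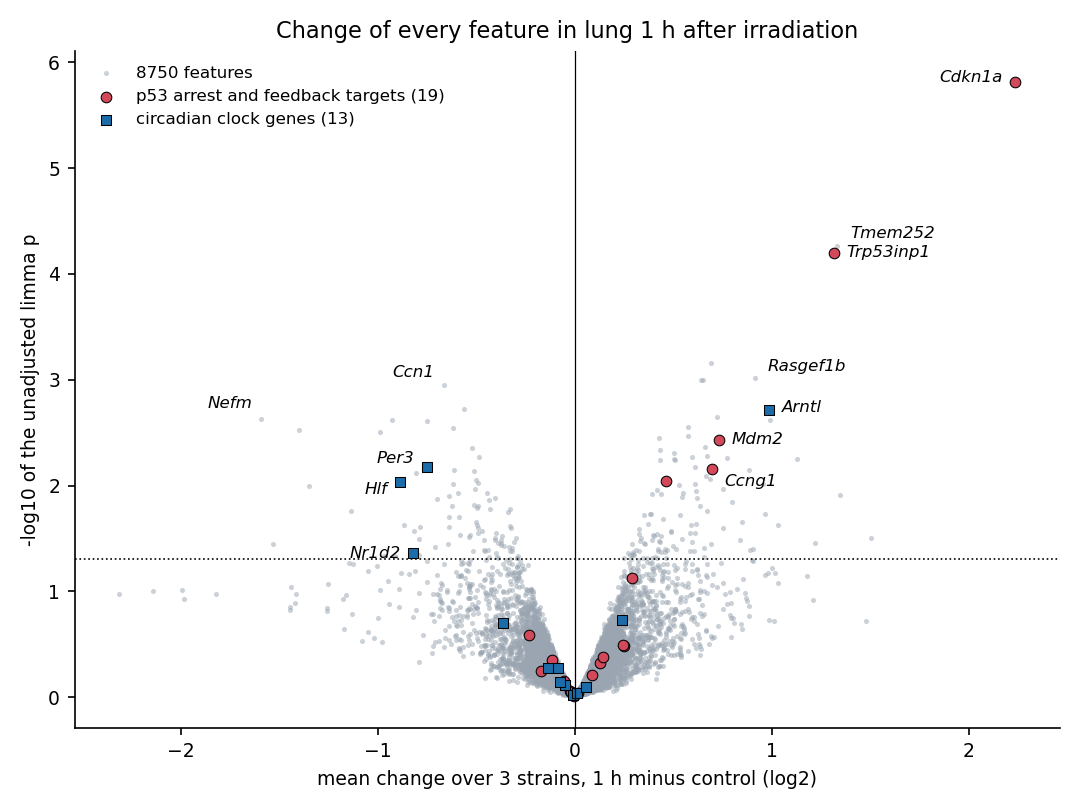
Mean change of each of the 8750 features in lung at 1 h (horizontal axis, log2) against the -log10 of its unadjusted limma p (vertical axis); the dotted line marks the unadjusted threshold of 0.05, circles the 19 p53 arrest and feedback targets and squares the 13 clock genes. Cdkn1a stands alone at 2.23, followed by Tmem252 and Trp53inp1, and 5 of the 19 p53 targets lie above the line on the right.

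Immediate early genes, which cells transcribe within minutes of a stimulus, were measured by 23 members with a median change of 0.22. At an unadjusted limma p under 0.05, 3 were higher and 1 lower, where 1.27% of all features were higher and 0.971% lower, and 9 were higher in all 3 strains (14.6% of all features). Nr4a2, an orphan nuclear receptor gene, was at -0.31, 0.23 and 0.14 in the controls and at 0.65, 0.87 and 0.94 at 1 h, without overlap. Nr4a1 had changes of 0.78, 0.74 and 0.26, and Sgk1, a serum- and glucocorticoid-induced kinase gene, 0.09, 0.55 and 0.37. Junb, an AP-1 subunit gene, was higher in each strain (0.32, 0.64 and 0.18), whereas Fos was not (-0.16, 0.52 and 0.49).

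Ccn1 ran the other way. This gene, also known as Cyr61, encodes a matrix-associated signalling protein, and it was at 0.44, 0.47 and 0.98 in the controls and at 0.02, -0.30 and 0.18 at 1 h. Every 1 h pool lay below every control, with a mean difference of -0.66 ± 0.14. Amotl2, which encodes a junction protein of the angiomotin family, was also lower without overlap, from between 1.30 and 1.37 in the controls to 0.77, 0.78 and 0.59.

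By the naming rule, 15 genes in each direction are described. They had the smallest unadjusted p among the genes with one sign in the 3 strains. Apart from Cdkn1a none of them passed the adjusted threshold, so their rank alone does not make them part of a response. On the higher side these had differences between 0.43 and 2.23, a range that the choice by smallest p largely sets. Rasgef1b, which encodes an exchange factor for Ras-type GTPases, was at 0.08, 0.08 and -0.31 in the controls and at 0.76, 1.02 and 0.83 at 1 h. Lmcd1, a LIM-domain transcriptional regulator, was at 0.38, 0.39 and 0.28 and then at 0.83, 0.98 and 1.15. Both were thus higher in each pool, with mean differences of 0.92 ± 0.19 and 0.64 ± 0.13. Cirbp, the cold-inducible RNA-binding protein gene, differed by 0.72 ± 0.17 and Ackr3, an atypical chemokine receptor gene, by 0.58 ± 0.14. Slc25a25, a mitochondrial carrier gene, differed by 0.57 ± 0.15, Arrdc3, an arrestin family gene, by 0.60 ± 0.16, Ptprg, a receptor phosphatase gene, by 0.67 ± 0.18, and Ncaph, a condensin subunit gene, by 0.77 ± 0.21.

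On the lower side the differences ran from -1.59 to -0.49. Nefm, which encodes a neurofilament subunit, had the widest, with changes of -2.65, -0.26 and -1.87 from levels far below the reference. Hs3st1, which encodes a heparan sulfate sulfotransferase, was at 0.93, 1.98 and 0.93 in the controls and at 0.22, 0.58 and 0.25 at 1 h. Its 1 h pools were all lower than its controls. Nr2f2, the transcription factor of venous endothelium known as COUP-TFII, differed by -0.56 ± 0.13, and Tcf21, a transcription factor of lung mesenchyme, by -0.50 ± 0.15. Hic1, a transcriptional repressor that p53 is known to induce, differed by -0.49 ± 0.13, but its 2 probes disagreed in size, at -0.73 and -0.24. Adgre5 (CD97), an adhesion receptor of leukocytes, differed by -0.52 ± 0.14, Dab1, an adaptor of reelin signalling, by -0.81 ± 0.24, and Cep128, a centriole gene, by -0.49 ± 0.15. None of these passed the adjusted threshold in the fit of all 12 arrays.

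The circadian clock runs as a loop in which Arntl (Bmal1) and Clock switch on Per, Cry and Nr1d genes, whose products in turn shut Arntl and Clock down. Of 13 measured clock genes, 1 was higher and 3 lower at an unadjusted limma p under 0.05 (1.27% and 0.971% of all features), and 2 were higher and 7 lower in all 3 strains (14.6% and 14.9% of all features). Arntl was at -0.19, -0.15 and 0.10 in the controls and at 0.93, 1.09 and 0.69 at 1 h, a difference of 0.99 ± 0.23 without overlap. Clock, its partner, had changes of 0.43, 0.13 and 0.17.

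Per3, a repressor of the loop, was at 0.26, 0.76 and 0.10 in the controls and between -0.40 and -0.36 at 1 h, a difference of -0.75 ± 0.21. Its 2 probes disagreed in size, at -1.36 and -0.14, whereas the other clock genes named here had 1 probe each. Nr1d2 (Rev-erb beta), which represses Arntl, had changes of -1.41, -0.71 and -0.34, and Hlf, an output transcription factor, -0.80, -1.19 and -0.68. Arntl and these 3 genes thus lay on opposite sides of their controls in all 3 strains. Per1 (0.06 ± 0.22), Cry2 (-0.01 ± 0.21) and Bhlhe40 (-0.05 ± 0.17) stood near the controls. The hour of the day at which the mice were killed was not given in the sources used here, and its part in these differences was not tested.

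The window before Per3 is shown for comparison because it carries a clock element. It lies at chr4:151044666-151044915, minus strand, from the same RefSeq table, with the D-box letters TTATGTAA, bound by Hlf and its relatives, in capitals.

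Per3: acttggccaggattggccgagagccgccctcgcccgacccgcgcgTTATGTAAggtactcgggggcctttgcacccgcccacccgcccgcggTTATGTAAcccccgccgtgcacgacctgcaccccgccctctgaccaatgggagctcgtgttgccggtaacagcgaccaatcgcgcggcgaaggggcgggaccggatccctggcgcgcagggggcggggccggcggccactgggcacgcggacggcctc

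The D-box was searched as TTATGTAA and TTATGCAA on both strands, and 1.5% of all windows held one. The window of Per3 held 2, and of the 10 clock genes with a window the other that held one was Per1. The E-box CACGTG, bound by Arntl and Clock, was present in 6.02% of all windows and in 1 of the 10 clock genes, Per1. Here too a gene was counted if any of its windows held a match, and the percentages are shares of single windows.

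Of 23 measured NF-kB and cytokine genes, which carry the inflammatory response, 2 were higher and 1 lower at an unadjusted limma p under 0.05 (1.27% and 0.971% of all features), with a median of 0.12. In all 3 strains 8 were higher (14.6% of all features), and 7 were higher without overlap (3.53%). Il4ra, an interleukin-4 receptor subunit gene, had changes of 0.72, 0.25 and 0.87. Il1b, which encodes interleukin-1 beta, was at 1.46, 0.09 and 0.76 in the controls and at 1.36, 1.82 and 1.79 at 1 h, so that A/J did not share the direction of the other strains. Csf1, the macrophage growth factor gene, was lower in each strain (-0.41, -0.38 and -0.23). Socs3, a feedback inhibitor of cytokine signalling, had changes of 0.56, 0.42 and 0.20, Birc3 of 0.11, 0.34 and 0.62, and Nfkbia, the NF-kB inhibitor, of -0.12, 0.66 and 0.32. Among 25 chemokine and receptor genes the median was 0.01 and Ccr2, the monocyte receptor, was lower in each strain (-0.32, -0.84 and -0.37). The 16 interferon response genes had a median of -0.02, with 0 at an unadjusted limma p under 0.05 (all features: 1.27% higher, 0.971% lower).

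Of 10 measured neutrophil genes 2 were higher at an unadjusted limma p under 0.05 (1.27% of all features). Csf3r, the G-CSF receptor gene, was at 0.46, 0.26 and 0.26 in the controls and at 0.86, 1.03 and 1.08 at 1 h. S100a8, a calprotectin subunit gene, was at 0.49, -1.13 and -0.18 and then at 0.69, 1.83 and 1.17. Both had no overlap, but the change of S100a8 ran from 0.20 in A/J to 2.96 in C57BL/6J. Mmp9, a matrix protease gene of neutrophils, had changes of 0.17, 0.97 and 0.62, but Lcn2, of the same list, had -2.05, 0.07 and 0.19. The mean change was above 0 for 6 of the 10 genes and below 0 for 4. Genes of granule proteins made in the bone marrow had mean changes of -0.14 for Mpo, 0.08 for Ltf, -0.02 for Ngp and -0.01 for Camp. The log2 of the list's summed ratios was 3.68, 2.84 and 3.06 in the controls and 3.38, 3.86 and 3.45 at 1 h. It was thus lower at 1 h in A/J and higher in C57BL/6J and C3H/HeMs. In whole lung, more cells of a type and more RNA per cell cannot be told apart.

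Of 19 endothelium genes 3 were lower at an unadjusted limma p under 0.05 (0.971% of all features) and 10 were lower in all 3 strains (14.9%), with a median of -0.07. Calcrl, the adrenomedullin receptor gene, was at 3.11, 2.79 and 2.65 in the controls and at 2.69, 2.31 and 2.08 at 1 h, lower in every strain while the groups overlapped. Ramp2, which encodes the accessory protein of that receptor, had changes of -0.64, -0.71 and -0.25, and Ace, the angiotensin-converting enzyme gene, -0.34, -0.26 and -0.26. The adhesion genes Cdh5 (0.05 ± 0.14) and Cldn5 (0.13 ± 0.14) and the receptor gene Kdr (0.03 ± 0.18) stood near the controls. The log2 of the summed endothelial ratios was 6.02 to 6.15 in the controls and 5.86 to 6.00 at 1 h, and its part in the lower receptor genes was not tested.

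Lung epithelium genes had a median of -0.15. Among 16 only Aldh1a1, a retinaldehyde dehydrogenase gene, was lower at an unadjusted limma p under 0.05 (0.971% of all features), with changes of -0.52, -0.54 and -0.32. The surfactant genes Sftpc and Sftpd stood at -0.13 ± 0.46 and -0.19 ± 0.17. The 15 B cell genes had the lowest median of all lists, -0.20, with 6 lower and 1 higher in all 3 strains (14.9% and 14.6% of all features). The other 8 were mixed in direction. At an unadjusted limma p under 0.05, 1 was lower and 0 higher (0.971% and 1.27% of all features). That gene was Cd22 (-0.26, -0.59 and -0.36). The antigen receptor genes Cd79a (-0.65, -1.13 and -0.03) and Cd79b (-0.33, -0.89 and -0.50) were lower in each strain but not at that p. Ebf1 was the one higher in all 3 strains (0.21, 0.16 and 0.15). The summed B cell ratios, on the log2 scale, were 3.47 to 3.80 in the controls and 3.32 to 3.66 at 1 h. Of 21 heart muscle genes 10 were higher in all 3 strains (14.6% of all features) and 0 lower (14.9%), with the highest median of all lists, 0.24. Their summed ratios lay far below those of lung genes, at 1.41 to 2.00 in the controls and 1.76 to 2.06 at 1 h. Nppa, the atrial natriuretic peptide gene, had changes of 0.61, 0.36 and 0.20 and Mb, the myoglobin gene, of 0.42, 0.60 and 0.31. None of the 21 had an unadjusted limma p under 0.05 (all features: 1.27% higher, 0.971% lower).

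Matrix genes are of interest in irradiated lung because of its later scarring. Of 30 measured, 3 were higher at an unadjusted limma p under 0.05 (1.27% of all features) and 0 lower (0.971%), with a median of 0.12. Loxl1, an elastin cross-linking enzyme gene, had changes of 0.55, 1.13 and 0.31, Eln, the elastin gene, of 0.37, 1.02 and 0.25, and Mmp14, a membrane-bound matrix protease gene, of 0.25, 0.55 and 0.38. All 3 changes were largest in C57BL/6J, whose single control array was the lowest of the 3 controls for each gene (0.29, -0.09 and -0.57). The collagen gene Col1a1 was not uniform (0.29, 0.86 and -0.08). The list's median was 0.22, 0.26 and -0.10 in the 3 strains.

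In the TGF-beta pathway, the central fibrogenic signal, 1 of 23 measured genes was higher and 1 lower at that p (1.27% and 0.971% of all features). The ligand gene Tgfb3 was at 0.46, 0.44 and 0.58 in the controls and at 0.91, 0.94 and 0.93 at 1 h, a difference of 0.43 ± 0.12 without overlap. Bmp4, a ligand of the same family, had changes of -0.16, -0.42 and -0.80. Smad6, an intracellular inhibitor of signalling by Bmp ligands, had -0.32, -0.50 and -0.24. The receptor gene Tgfbr2 stood at -0.09 ± 0.20 and Bmpr2 at -0.24 ± 0.21.

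Of 30 mitosis genes 1 was lower at an unadjusted limma p under 0.05 (0.971% of all features) and 7 were lower in all 3 strains (14.9%), with a median of -0.04. Aurka, the Aurora A kinase gene, was at -2.32, -3.11 and -2.40 in the controls and at -4.08, -3.36 and -3.37 at 1 h. Its 1 h pools lay below all controls, though the change in C57BL/6J was -0.25 against -1.75 in A/J. The 26 DNA replication genes had a median of -0.11 and the 17 G1 cyclin, Cdk and inhibitor genes, a list without Cdkn1a, a median of -0.04.

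Of 24 heat shock genes 11 were lower in all 3 strains (14.9% of all features), with a median of -0.14, among them Hsph1 (-0.40, -0.30 and -0.69) and Hspa1a (-0.41, -0.25 and -0.69). Of 25 oxidative stress genes, Gclc, the rate-limiting enzyme gene of glutathione synthesis, was higher in each strain (0.66, 0.63 and 0.48). Gsta2, a glutathione transferase gene (-0.17, -0.95 and -0.79), and Sod2, the mitochondrial superoxide dismutase gene (-0.46, -0.26 and -0.28), were lower. Of 20 ribosomal protein genes 15 were lower in all 3 strains, against 14.9% of all features, at a median of -0.16. At an unadjusted limma p under 0.05 there were 0 (all features: 1.27% higher, 0.971% lower).

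**Figure D3:**
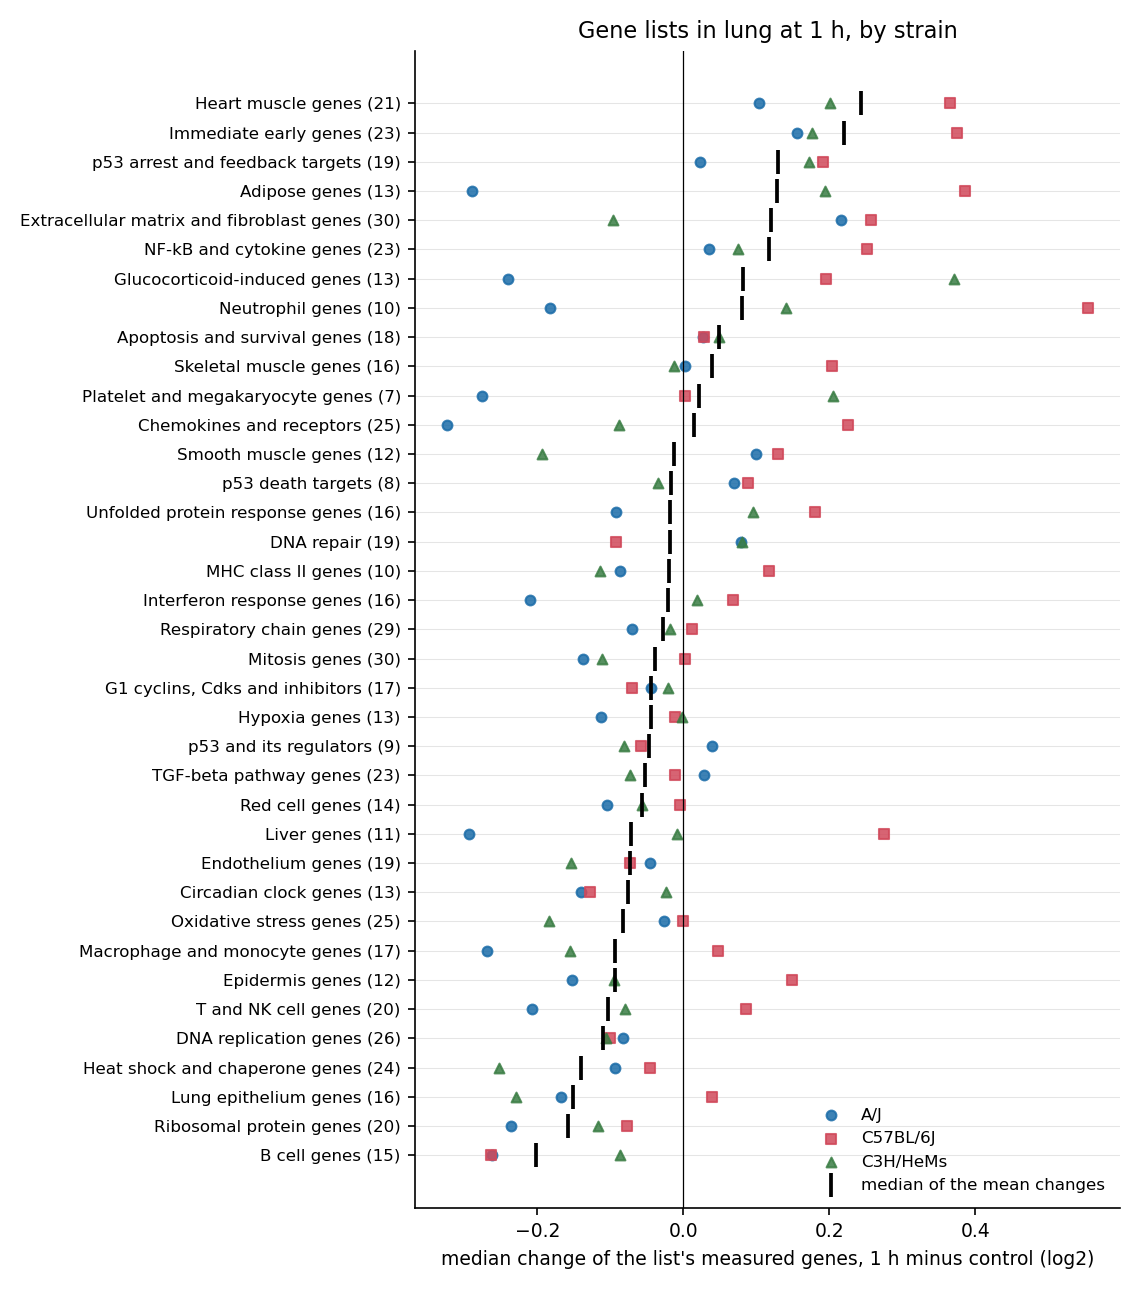
Median change of the measured genes of each of 37 lists at 1 h (horizontal axis, log2), with a symbol for each strain and a black bar for the median of the mean changes; the number of measured genes is in brackets. All medians of mean changes lie between -0.20 (B cell genes) and 0.24 (heart muscle genes), and the 3 strains stand on both sides of 0 for many lists.

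Over all features the changes of the strains were only weakly related. Across the 8750 features, which are not independent replicates, r between the changes of 2 strains was 0.05 (A/J with C57BL/6J), 0.10 (A/J with C3H/HeMs) and 0.05 for the other pair. At least 2-fold changes numbered 40, 81 and 164 on the higher side and 79, 90 and 173 on the lower side. In common to A/J and C57BL/6J were 3 of the higher ones, which is 7.50% of the first list and 3.70% of the second. A/J and C3H/HeMs had 4 in common (10.0% and 2.44%), and C57BL/6J and C3H/HeMs 13 (16.0% and 7.93%). Of all features, 0.457%, 0.926% and 1.87% were that much higher in the 3 strains. On the lower side the same pairs had 4, 10 and 8 in common, and 9, 4 and 21 features were at least 2-fold changed in opposite directions. With 1 array per strain and time no strain's own response could be tested. Strain medians of a list differed most for the neutrophil genes, at -0.18, 0.55 and 0.14.

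The difference between 12 h and 1 h holds no control value. Its standard error and p came from the fit of all 12 lung arrays, controls among them. Cdkn1a was at 3.87, 3.54 and 3.32 at 12 h, against 2.89, 3.51 and 2.90 at 1 h, a difference of 0.47 ± 0.20 (limma, adjusted p = 0.292). In C57BL/6J the levels at 1 h and 12 h were alike. At 12 h the A/J and C3H/HeMs arrays, but not that of C57BL/6J, had over 100 ratios of exactly 0. Strain and this set of arrays cannot be told apart here. Mdm2 was at 1.71, 1.15 and 1.5 at 12 h, and C57BL/6J again had the same level as at 1 h. Trp53inp1 was at 2.24, 1.95 and 1.81 at 12 h. The difference of 12 h from 1 h was 0.57 ± 0.19 for Mdm2 and for Trp53inp1. With the set of arrays as a second block it was 0.10 ± 0.22 for Cdkn1a, 0.17 ± 0.18 for Mdm2 and 0.29 ± 0.23 for Trp53inp1.

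At 12 h 6 features were higher than at 1 h at an adjusted p under 0.05 (0.0686%), 5 of them with a symbol, and 0 were lower (0%). Without adjustment, 1445 of 8750 features had a limma p under 0.05 between these times, against 196 for 1 h against control. Ephx1 was at 0.20, 0.54 and 0.28 at 1 h and at 2.17, 2.17 and 2.43 at 12 h, and rose by 1.92 ± 0.14 between these times (limma, adjusted p = 0.00248). Exoc4, an exocyst subunit gene, rose by 1.91 ± 0.15, Ctsf, the cathepsin F gene, by 1.72 ± 0.16, Ccng1 by 1.66 ± 0.20 and Ccn5, a matrix-associated signalling gene, by 1.20 ± 0.14. Apart from Ccng1, these genes were at their control level at 1 h, with differences between -0.12 and 0.02. The A/J and C3H/HeMs arrays at 12 h and 72 h stood apart in having 115 to 674 ratios of exactly 0. With these arrays as a second block, Ephx1 (adjusted p = 0.0241) and Ctsf (0.0335) passed, and Exoc4 (0.0653), Ccn5 (0.285) and Ccng1 (0.310) did not (limma).

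The count of 6 was 2 with that block and 0 with only the arrays at 12 h and 1 h. It was 2 when the A/J array or the C3H/HeMs array was left out at either 1 h or 12 h. It was 3 when the C57BL/6J or the C3H/HeMs array was left out at 72 h, or the C3H/HeMs control. It was 0 without all arrays of A/J, and likewise without those of C3H/HeMs, and 9 without the C57BL/6J control.

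Rasgef1b, Tmem252 and Lmcd1 had 12 h values near their controls. Rasgef1b was at 0.06, -0.34 and -0.35 at 12 h, Tmem252 at 0.22, -0.97 and 1.19, and Lmcd1 between 0.19 and 0.35. Their differences from 1 h were -1.08 ± 0.19, -1.31 ± 0.19 and -0.72 ± 0.13, with limma adjusted p between 0.0757 and 0.106. Arntl was at 0.12, 0.24 and -0.39 at 12 h, and Per3 at 0.99, 0.52 and 0.93, below and above the 1 h level of the same strain, respectively.

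**Figure D4:**
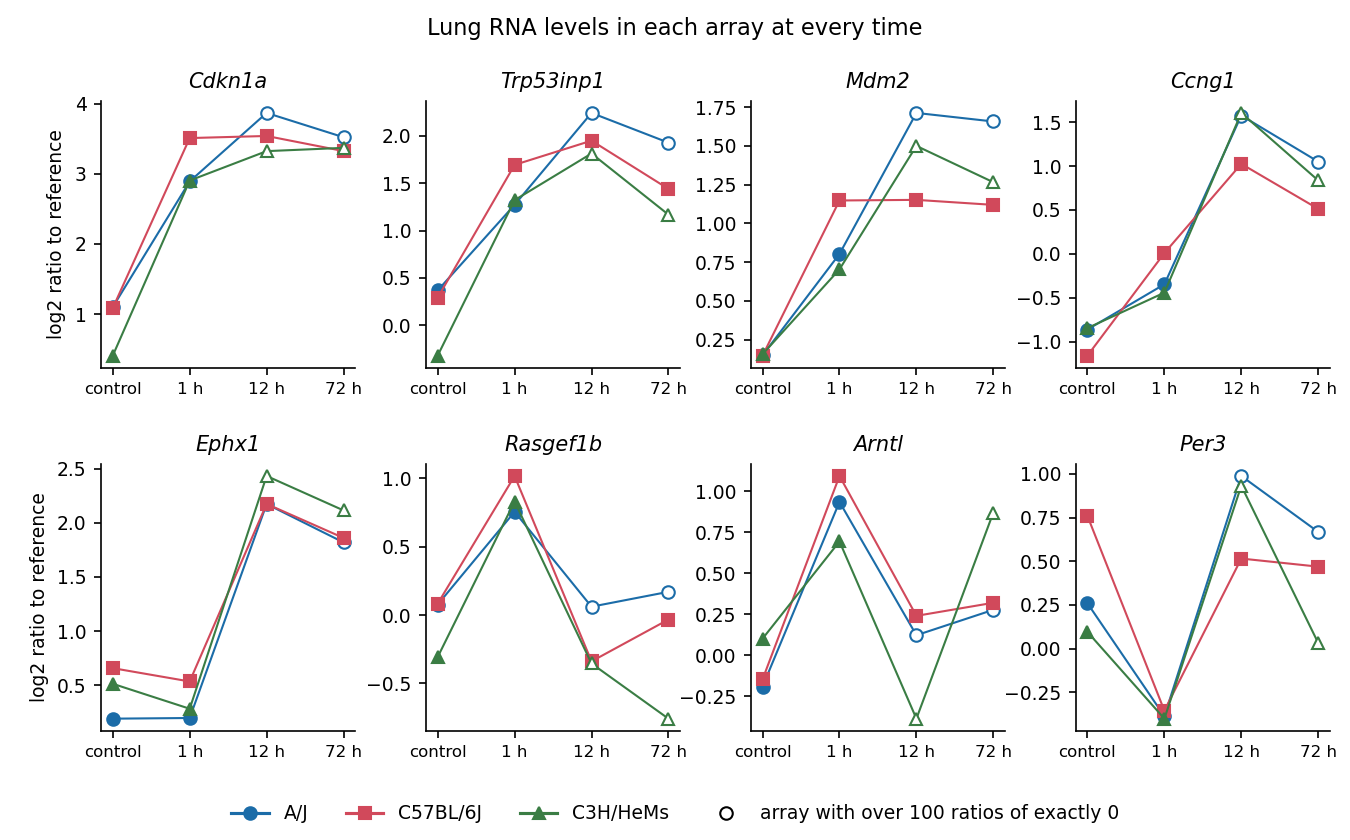
Log2 ratio to the reference of 8 genes in the 12 lung arrays (horizontal axis: control, 1 h, 12 h and 72 h, not to scale), a line for each strain; open symbols mark the 4 arrays with over 100 ratios of exactly 0. Cdkn1a, Trp53inp1 and Mdm2 stay high from 1 h on, Ephx1 rises between 1 h and 12 h, Rasgef1b peaks at 1 h, Arntl is higher at 1 h than in the control and at 12 h in each strain, and Per3 has its lowest values at 1 h.

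Skin irradiated with a higher dose gave a comparison at the same time. Skin was exposed at another site, so dose and tissue cannot be told apart. Cdkn1a was higher in skin in each strain (1.03, 0.56 and 0.87), with a mean of 0.82 ± 0.28 that was smaller than in lung by 1.42. This difference had an unadjusted p of 0.0011 and an adjusted p of 1.00 (limma, interaction). No feature passed that test (0%), while 176 had an unadjusted p under 0.05. Mdm2 was higher in skin as well (0.59, 1.58 and 0.84), and Aurka was lower (-1.20, -1.28 and -1.57).

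Of the 15 leading higher genes of lung, 12 had a mean above 0 in skin (42.9% of all features) and 6 were above their controls in all 3 strains (11% of all features). Of the 15 lower ones 13 were below 0 (57.1% of all features) and 8 in all 3 strains (18.2%). Slc25a25 (0.82, 0.81 and 0.59 in skin) and Per3 (-0.38, -1.21 and -0.29) were among those alike in both. Hs3st1 was opposite, at 0.30, 0.95 and 0.62 in skin, and so was Arrdc3, at -0.20, -0.31 and -0.61. The lung change minus the skin change was -1.55 ± 0.40 for Hs3st1 and 0.97 ± 0.34 for Arrdc3 (limma adjusted p = 1.00 for both). Over all features the mean changes of lung and skin correlated at r = 0.17, as a description.

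**Figure D5:**
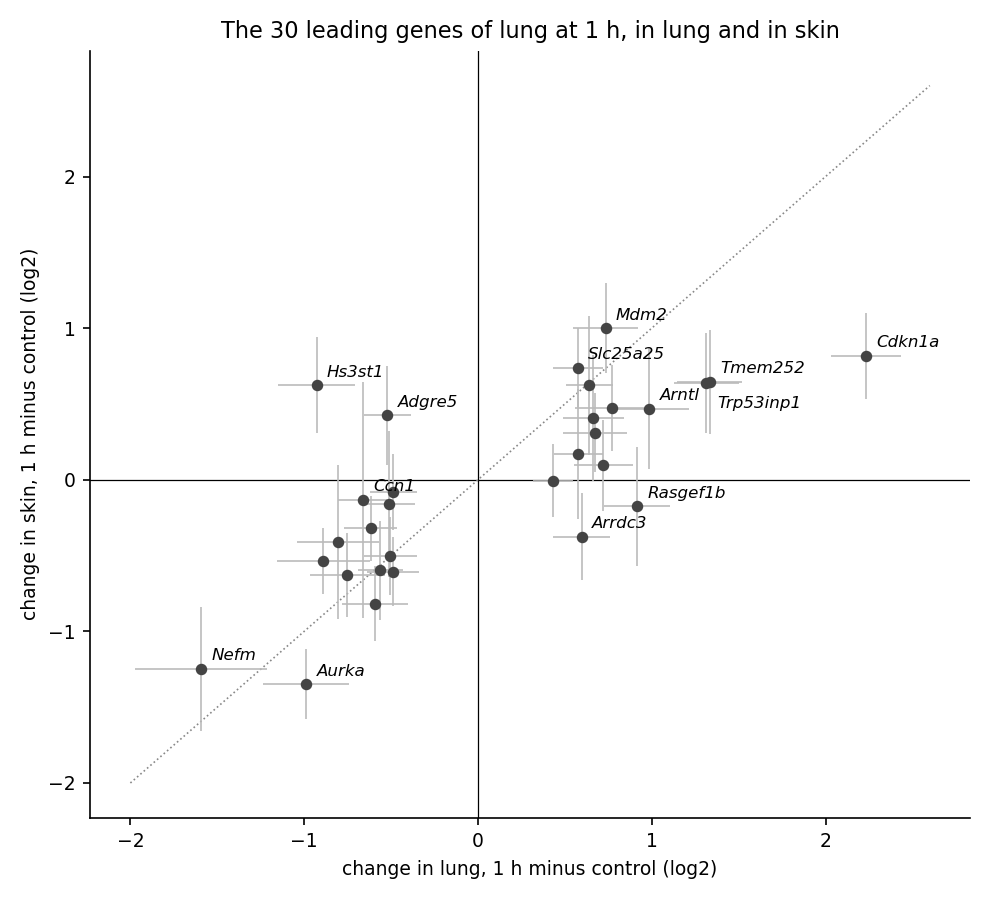
Mean change at 1 h in lung (horizontal axis, log2) and in skin (vertical axis, log2) of the 30 leading lung genes; bars are standard errors of the limma fits and the dotted line marks equal change. Cdkn1a lies at 2.23 in lung and 0.82 in skin, Mdm2 and Aurka lie near or beyond the line, and Hs3st1 and Arrdc3 have opposite signs in the 2 tissues.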

How the data were processed

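The deposited values were log10 ratios, and the submitters' processing notes name Agilent Feature Extraction. The direction, Cy5 over Cy3, was taken from Agilent's convention, the dye labels and lung marker genes. The version and the dye and background steps are not given in the sources used here. Lung RNA carried Cy3 per the labels, so the sign of lung values was turned, which placed lung genes above the reference. Ratios were multiplied by 3.32 to give log2, centred on each array's median, and probes of one gene averaged. Of 9275 probes 6433 had 1 gene symbol, 381 several and 2461 none, from the platform annotation.

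limma 3.58.1 in R 4.3.3 fitted the 12 lung arrays with a term for the 4 groups and one for strain (6 residual degrees of freedom). Variances were moderated by eBayes and p-values adjusted by Benjamini-Hochberg over 8750 features. The lung and skin changes were compared in a fit of the 24 arrays that blocked on strain within tissue. The code was tested on simulated data. The replicate number is the strain, and control and 1 h arrays of the same strain deviated from their group means together (r = 0.57, 0.39 and 0.36).

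Named are the features past the threshold, the 15 genes with the smallest p in each direction with one sign in the 3 strains, genes changed at least 2-fold in all strains, up to 4 members per list with the smallest p, genes that passed at 12 h against 1 h, and defining markers. Values are also given for further list members, chosen after they were seen. Members, lists and this rule were chosen with earlier results of these data known. Alternatives covered the arrays fitted, the block, scaling, probe averaging, limits and zeros, and each array and strain left out. Upstream windows came from RefSeq (GRCm38.p6).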

Additional observations from a re-analysis of the deposited data

How the results depend on the processing

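The Cdkn1a difference kept its direction in every alternative. It was 2.23 with only the 6 arrays compared, where the adjusted p was 0.70 (limma), 2.05 to 2.45 with an array left out, and 2.11 to 2.46 with a strain left out (2.14 without C57BL/6J). The count of features past the threshold was 0 with only the 6 arrays compared and 0 to 1 with an array or strain left out. For 12 h against 1 h it was 0 with only the arrays compared, 2 with the 4 arrays that stood apart as a second block, and 0 to 9 with an array or strain left out. The test of lung against skin called 0 in each. The count of at least 2-fold changes was 20 at 1.5-fold and 21, 14 and 7 without A/J, C57BL/6J and C3H/HeMs, where fewer strains had to meet it.

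Without the replicate block, that is without the strain, Cdkn1a stood at 2.23 with an adjusted p of 0.0122 (limma), and 5 features passed at 12 h against 1 h. Of 3813 refits of 159 other named genes 3785 kept direction and side of the threshold. None of these genes was past the threshold at 1 h in the main fit. Many had been chosen for one sign in the 3 strains, which leaving out an array can hardly turn. The count is therefore no strong check. The refit that crossed the threshold was that of Nefm, at -2.19 with a limma adjusted p of 0.0371 without the control of C57BL/6J. The other 27, in 18 genes not past the threshold, changed sign. With 1 array left out, the log2 difference ran in Sirt1 from -0.032 to 0.29, Usp7 from -0.0013 to 0.23, Gbp2 from -0.51 to 0.030, H2-Eb1 from -0.21 to 0.12, H2-DMa from -0.075 to 0.17, Tpm2 from -0.037 to 0.29 and F13a1 from -0.47 to 0.044, and in Itga2b from -0.086 to 0.63, Gfi1b from -0.38 to 0.54, P4ha2 from -0.26 to 0.059, Aldoa from -0.26 to 0.0098, Ndrg1 from -0.23 to 0.018, Ppl from -0.45 to 0.0098 and Ttr from -0.061 to 0.72. The sign also turned for Lcn2 (0.13), H2-Eb1 (0.039), Ndrg1 (0.063) and Sprr1a (0.014) without A/J, for Gfi1b (-0.094) and Ttr (-0.085) without C57BL/6J, for Actn3 (0.022) without C3H/HeMs, and for Hk1 (0.028) under quantile scaling. The cause was not tested. Of 222 list medians 208 moved by less than the spread between strains. The sources give no spot signal, so the error of single ratios is unknown, and the 3 arrays per group limit precision.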

Other observations

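Further lists are given as values. The 17 macrophage and monocyte genes had a median change of -0.09, with 4 lower and 0 higher in all 3 strains (14.9% and 14.6% of all features), and Chil3, a marker of alveolar macrophages, had changes of -1.19, -0.49 and 0.04. The 20 T and NK cell genes had a median of -0.10, with 3 lower and 2 higher in all 3 strains (14.9% and 14.6% of all features). Gata3, a transcription factor of helper T cells, was lower in each strain (-0.26, -0.81 and -0.71), as was Cd8a (-0.41, -0.15 and -1.06). Txk was higher in each strain (0.23, 0.26 and 0.38). The 10 MHC class II genes had a median of -0.02.

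The 16 unfolded protein response genes had a median of -0.02, with Atf4 higher in each strain (0.28, 0.44 and 0.16). The 29 respiratory chain genes stood at -0.03 and the 13 hypoxia genes at -0.04. Among 18 apoptosis and survival genes the survival gene Bcl2l1 had changes of 0.64, 0.46 and 0.33. Blood-borne markers gave no common direction, with medians of -0.06 for 14 red cell and 0.02 for 7 platelet genes.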
